A study of Mus musculus with 2 samples.

Results

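Levels of 10 transcription factor genes of endothelial cells, Klf2, Klf4, Sox7, Sox17, Sox18, Erg, Foxf1, Tal1, Gata2 and Meox1, were followed across the cells of aged mouse lung. They were chosen by name, and all 10 were among the 15526 genes of the deposited matrix. Endothelial cells are held in their state by a small number of DNA-binding proteins. KLF2 and KLF4 are zinc finger factors that blood flow induces through a MEF2-dependent pathway and that raise anti-thrombotic and anti-inflammatory genes such as Thbd. SOX7, SOX17 and SOX18 form the SoxF group of vessel-forming factors, with SOX17 best known in arteries and SOX18 in lymphatic development. ERG is the main ETS factor of endothelium, FOXF1 is a forkhead factor needed for alveolar capillaries, TAL1 and GATA2 act together in blood and endothelial cells, and MEOX1 is a homeobox factor known best from the somites.

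Lung cells sorted as mCherry-positive came from C57BL/6 p16-FDR mice aged 20 to 22 months, which carry a FLP recombinase and an mCherry-tagged diphtheria toxin receptor as a reporter of p16, a product of Cdkn2a. Their RNA was measured in 2 samples by 10x Genomics 3' single-cell sequencing. Both samples formed 1 group: no unsorted, mCherry-negative or young cells were set beside them, so every comparison below is between cells of this 1 sorted population and carries no test across animals. The cell names gave 2 library numbers that matched neither sample label, so values are also given per library.

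A cell was taken as endothelial where the mean of the deposited values of Cldn5, Cdh5, Ramp2 and Egfl7, 4 genes of endothelial junctions and vessels, was 2 or more. This held for 611 of 1344 cells (45.5%), 154 of them in library 2 and 457 in library 1; the other 733 cells are given beside them. The cells nearest to the limit had means of 2.01 above it and 1.90 below it. A median of 5299 UMIs (unique molecular identifiers, each 1 captured RNA molecule) was read per endothelial cell and 6448 per other cell, and the libraries shared 0 cell barcodes. All 8 endothelial genes not used in the split, among them Pecam1 and Tie1, were over 2-fold higher in the endothelial cells, with a summed rate of 79.0 UMIs per 10000, against 0.872 in the other cells. Of the endothelial cells, 12 also carried markers of another lineage at a mean value of 1 or more.

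Each endothelial cell was placed by which of Car4, Gpihbp1 and Vwf had its highest value. Car4 marks the large capillary cells of the alveolus, Gpihbp1 the general capillary cells, and Vwf larger vessels. The Car4 subset held 518 cells, the Gpihbp1 subset 72 and the Vwf subset 17, and 4 cells had no single highest gene. Of 6 further markers of Car4-high capillary cells, 6 were over 1.5-fold higher in the Car4 subset than in the other subsets, and 6 of 6 general capillary markers were higher in the Gpihbp1 subset. Of 8 larger vessel markers, 7 were higher in the Vwf subset, but 2 of the 8 reached detection in 5% of cells. There 5 of 6 general capillary markers were higher too, with a summed rate of 35.2, against 19.6 for the larger vessel markers. All 4 T-cell markers were higher there as well, their UMIs coming from 1 cell, so this subset is named by its leading gene alone. Library 2 supplied 144 cells of the Car4 subset but 7 of the Gpihbp1 subset and 2 of the Vwf subset.

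On GRCm38, by the GENCODE annotation, Klf2 lies at chr8:72319033-72321656 and Foxf1 at chr8:121084386-121088144, Klf4 at chr4:55527143-55532466 and Tal1 at chr4:115056426-115071755. Sox7 lies at chr14:63943673-63950732, Sox17 at chr1:4490931-4497354 and Sox18 at chr2:181669836-181671640. Erg lies at chr16:95359169-95586593, Gata2 at chr6:88193891-88207032 and Meox1 at chr11:101877510-101894374. The matrix gives 1 value per gene, so no exon or isoform is told apart.

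The promoters of Klf2 and Klf4 are shown because this pair varied together most closely from cell to cell (Pearson's r, given further on). Both windows are the 250 bases before the annotated RefSeq start in GRCm38.p6, written 5′ to 3′ along the gene's strand; Klf2 lies on the plus strand of chromosome 8 (chr8:72318812-72319061) and Klf4 on the minus strand of chromosome 4 (chr4:55532476-55532725). Capitals mark a match to CTANNNNTAG, the letters searched for a MEF2 site; the motif reads the same on both strands. The RefSeq start of Klf2 lies a little inside the GENCODE gene given above.
Klf2: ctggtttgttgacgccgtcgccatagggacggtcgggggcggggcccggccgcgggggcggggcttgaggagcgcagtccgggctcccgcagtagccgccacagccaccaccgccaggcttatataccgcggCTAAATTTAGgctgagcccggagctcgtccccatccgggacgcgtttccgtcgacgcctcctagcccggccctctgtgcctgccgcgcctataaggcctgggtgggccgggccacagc
Klf4: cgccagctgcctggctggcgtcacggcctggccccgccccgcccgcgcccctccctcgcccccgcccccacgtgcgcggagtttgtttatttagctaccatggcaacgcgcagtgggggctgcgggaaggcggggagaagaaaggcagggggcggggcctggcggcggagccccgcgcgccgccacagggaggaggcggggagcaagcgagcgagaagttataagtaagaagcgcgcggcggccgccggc
The Klf2 window held 1 match, CTAAATTTAG, beginning 118 bases before the start, and the Klf4 window held none. Among all 32851 windows of this length, 1052 (3.20%) held a match. Windows for 5 of the 10 genes were at hand (Klf2, Klf4, Erg, Gata2 and Tal1), and among these 5 the Klf2 window alone held a match.

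All 10 genes were at least 2-fold higher in endothelial cells than in the other cells of the sort. Over the 9365 genes detected in 5% or more of cells, 28.2% were higher by this measure and the median ratio was 1.45, so higher values were common in this split. Levels are given as rates, the summed UMIs of a gene per 10000 UMIs of the group, with 95% Poisson intervals that cover counting error only. The 10 genes fell into 2 sets: Klf2 and Klf4 were 2.11-fold and 2.82-fold higher, and the other 8 were from 16.8-fold (Meox1) to 410-fold (Sox18) higher. Divided by the median ratio of all genes, Klf2 and Klf4 no longer reached 2-fold and 8 of 10 genes did.

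The SoxF genes were rarely read outside the endothelial cells. Sox18 had 1506 UMIs and a rate of 4.07 (3.87 to 4.29) in endothelial cells, against 6 UMIs and 0.00993 (0.00364 to 0.0216) in the other cells. Sox7 had a rate of 0.917 (0.822 to 1.02) in endothelial cells, against 0.0199 (0.0103 to 0.0347) in the others. Sox17 had 327 UMIs and a rate of 0.885 (0.791 to 0.986) in endothelial cells, against 3 UMIs in the 733 other cells. The ratio was 46.2 for Sox7 (26.1 to 90.3) and 178 for Sox17 (60.4 to 869), the width of the last interval coming from those 3 UMIs.

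Foxf1 and Gata2 were detected in most endothelial cells and in few others. Foxf1 had a rate of 7.35 (7.07 to 7.63) and a UMI in 94.1% of endothelial cells, against 0.101 (0.0772 to 0.130) and 6.28% of the other cells. Gata2 had 3.69 (3.49 to 3.89) and 83.3%, against 0.0414 (0.0268 to 0.0611) and 2.05%. Foxf1 overlaps the annotated gene Gm20388 on the same strand, and how reads shared by both were counted is not given in the sources used here. Meox1 had a rate of 1.14 (1.04 to 1.26) in endothelial cells and 0.0679 (0.0487 to 0.0921) in the others.

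Erg and Tal1 were read at the lowest rates of the 10, in 94 of 611 endothelial cells each (15.4%). Erg had 115 UMIs and a rate of 0.311 (0.257 to 0.373) in endothelial cells, against 3 UMIs in the other cells. Tal1 had 108 UMIs and a rate of 0.292 (0.240 to 0.353), against 2 UMIs. At this depth a cell without a UMI of either gene cannot be called a cell that lacks it. A median of 6 of the 10 genes had a UMI per endothelial cell, with 2 as the lowest and 10 as the highest, and a median of 1 per other cell.

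In library 2, Sox7, Sox17, Sox18, Erg and Gata2 had 0 UMIs in the 45 other cells, which allows a rate of up to 0.0610, and their endothelial rates there were 1.09, 0.573, 7.31, 0.131 and 4.03. Klf2 was 3.05-fold higher in endothelial cells in library 2 and 2.04-fold in library 1, and Klf4 4.43-fold and 2.68-fold.

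**Figure D1:**
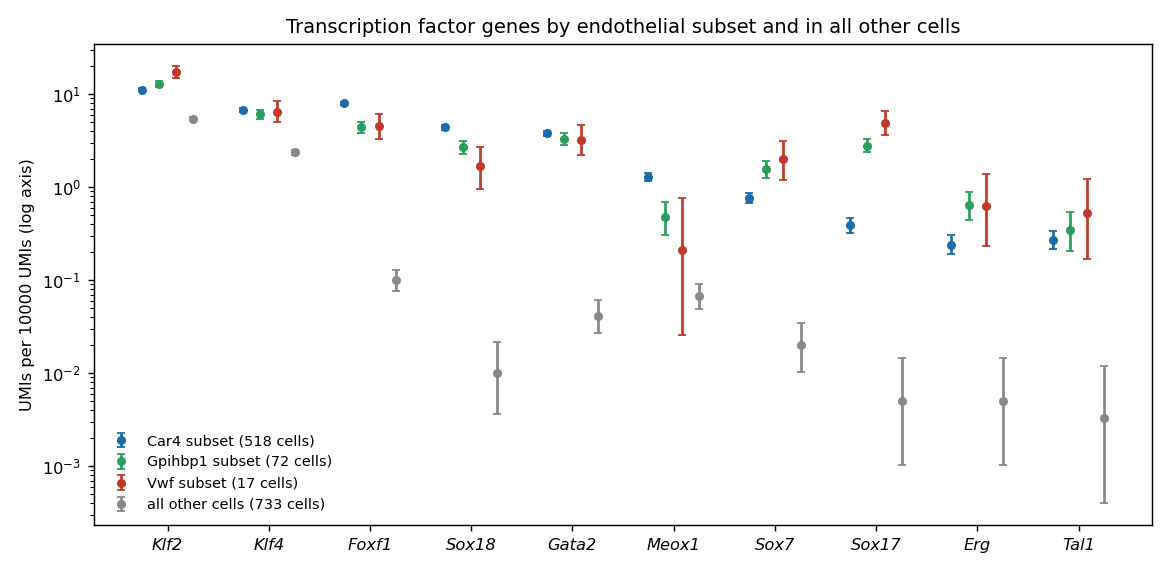
Rate of each gene (UMIs per 10000 UMIs, log axis) in the Car4, Gpihbp1 and Vwf subsets of the endothelial cells and in all other cells; bars are 95% Poisson intervals. Sox17 is at 0.393 in the Car4 subset, 2.79 in the Gpihbp1 subset and 4.94 in the Vwf subset, while Klf2 and Klf4 are the 2 genes whose level in other cells is above 1.

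Klf2 and Klf4 were also read in cells with immune and stromal markers, and in different ones. The other cells were grouped by which of 7 marker lists had the highest mean value, at 1 or more; these groups are ranges of a score, not cell types. Klf2, which in T cells is known to keep them circulating, had its highest rate among these groups in the 147 cells with T-cell markers, at 12.6 (11.7 to 13.6). This overlapped the rate over all endothelial cells, 11.6 (11.2 to 11.9), but came from 59.2% of the T-marker cells, against 93.9% of the endothelial cells; after thinning each cell to 2500 UMIs the shares were 54.9% and 83.8%. Median depth was 3676 UMIs in the T-marker cells and 5299 in the endothelial cells. Klf2 had a rate of 7.79 (7.10 to 8.54) in the 81 cells with B-cell markers and 7.08 (6.73 to 7.43) in the 249 with myeloid markers, 2 intervals that overlap. Fibroblast-marker cells had 2.80 (2.53 to 3.09; 193 cells) and plasma-cell-marker cells 0.141 (0.0677 to 0.259; 24 cells). The 10 cells with contractile markers had 4.53, or 1.95 without the cell with most UMIs.

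Among the marker groups of other cells, Klf4 was low in those where Klf2 was highest. It had a rate of 0.522 (0.352 to 0.745) in T-marker cells and 0.187 (0.0932 to 0.334) in B-marker cells, against 4.04 (3.78 to 4.31) in myeloid-marker cells, where KLF4 is known to act in monocytes, and 3.11 (2.83 to 3.41) in fibroblast-marker cells. The rate over all endothelial cells, 6.67 (6.41 to 6.94), was above each of these. No Klf4 UMI was seen in the 24 plasma-cell-marker cells, which allows a rate of up to 0.0423. Klf2 thus exceeded Klf4 in T-, B- and myeloid-marker cells, while in fibroblast-marker cells the intervals overlapped.

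**Figure D2:**
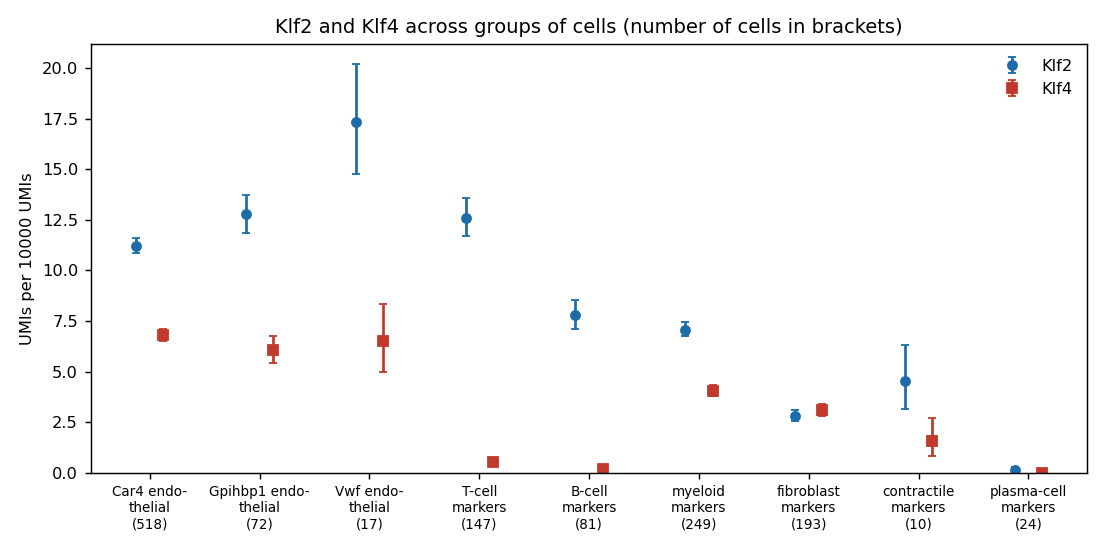
Rates of Klf2 (circles) and Klf4 (squares) in the 3 endothelial subsets and in the groups of other cells by marker list, as UMIs per 10000 UMIs with 95% Poisson intervals. Klf2 in T-marker cells (12.6) lies between the Car4 subset (11.2) and the Gpihbp1 subset (12.8) while Klf4 there is at 0.522; the 5 epithelial-marker cells and the 24 cells on no list are not drawn.

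Of the other 8 genes, Foxf1 and Meox1 had most of their remaining UMIs in fibroblast-marker cells. Foxf1, known in lung mesenchyme, had 48 UMIs in 38 of 193 fibroblast-marker cells (19.7%) and a rate of 0.336 (0.248 to 0.446), against 0 UMIs in the 147 T-marker cells and a UMI in 0.803% of myeloid-marker cells. Those myeloid-marker cells were deeper, with a median of 8256 UMIs against 6648. Meox1 had 35 UMIs in 9 fibroblast-marker cells, a rate of 0.245 (0.171 to 0.341) that was 0.170 without the cell with most UMIs. Gata2 had 25 UMIs in 15 other cells, and 10 of those UMIs came from 1 cell. Erg, Tal1, Sox7, Sox17 and Sox18 had at most 6 UMIs in any of these groups.

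Between the endothelial subsets the genes went in both directions. In the Car4 subset, Meox1, Foxf1 and Sox18 were at least 1.5-fold higher than in the other 2 subsets, and Sox17, Erg and Sox7 at least 1.5-fold lower. That is 3 of 10 in each direction, where 17.9% of 8505 genes were higher and 14.2% lower. Klf2, Klf4, Tal1 and Gata2 were within 1.5-fold. The 2 other contrasts, of the Gpihbp1 and the Vwf subset, share these cells and are given for their own values.

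Sox17 differed most between the subsets. Its rate was 0.393 (0.326 to 0.470) in the Car4 subset, against 3.11 in the other subsets, a ratio of 0.127 (0.100 to 0.160). In the Gpihbp1 subset it was 2.79 (2.36 to 3.27), and in the Vwf subset 4.94 (3.63 to 6.57), and the 3 intervals do not overlap. A UMI was seen in 59 of 518 cells of the Car4 subset (11.4%), 51 of 72 of the Gpihbp1 subset (70.8%) and 12 of 17 of the Vwf subset (70.6%), and after thinning to 2500 UMIs in 5.46%, 48.4% and 59.4%. The ratio in the Car4 subset was 0.0678 in library 2 and 0.133 in library 1. Of all 330 Sox17 UMIs, 46.4% came from the Gpihbp1 subset, which held 5.36% of the cells, and 14.2% from the Vwf subset, which held 1.26%.

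Sox7 and Erg had the same direction at smaller size. Sox7 had a rate of 0.770 in the Car4 subset, against 1.63 in the other subsets (ratio 0.472, 0.373 to 0.600), with 1.57 in the Gpihbp1 and 2.00 in the Vwf subset. Erg had 0.241 in the Car4 subset, against 0.637 (ratio 0.379, 0.255 to 0.570). In the Vwf subset Erg had 6 UMIs in 3 cells, 4 of them in 1 cell, so its level there rests on that cell. In library 2 all 14 Erg UMIs were in the Car4 subset, and the 9 cells of the other 2 subsets had 0, so for Erg the contrast was seen in library 1 (0.437) and could not be seen in library 2.

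Sox18 ran the other way from its 2 relatives, but less so within a library. It had a rate of 4.39 (4.16 to 4.64) in the Car4 subset, against 2.53 in the other subsets, with 2.68 in the Gpihbp1 and 1.68 in the Vwf subset. The ratio of 1.74 (1.47 to 2.05) was 1.21 (0.786 to 1.97) within library 2 and 1.24 (1.03 to 1.5) within library 1. Foxf1 behaved likewise: 8.01 in the Car4 subset, against 4.43, a ratio of 1.81 (1.60 to 2.05) that was 1.52 (1.03 to 2.33) within library 2 and 1.48 (1.29 to 1.70) within library 1. Weighted over library, Sox18 and Foxf1 were below 1.5-fold. Meox1 had 1.28 in the Car4 subset, against 0.435, a ratio of 2.96 (2.01 to 4.51) and of 2.58 in library 2 and 2.77 in library 1, the first from 2 UMIs in the other subsets and so wide (0.701 to 21.5).

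Counted per cell, the SoxF genes were spread differently over the subsets. None of the 3 had a UMI in 78 of 518 cells of the Car4 subset (15.1%), in 0 of 72 of the Gpihbp1 subset and in 2 of 17 of the Vwf subset. All 3 had a UMI in 30 cells of the Car4 subset (5.79%), 27 of the Gpihbp1 subset (37.5%) and 3 of the Vwf subset (17.6%).

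Klf4 and Gata2 stayed within 1.5-fold in all 3 subset contrasts, and Klf2 passed it in the Vwf subset alone (1.51, 1.29 to 1.77). Klf2 had 11.2 (10.9 to 11.6) in the Car4 subset, 12.8 (11.8 to 13.8) in the Gpihbp1 subset and 17.3 (14.8 to 20.2) in the Vwf subset; in the 17 Vwf cells it ranged from 0 to 46.3 per 10000 with a median of 12.9, and the rate was 15.4 without the cell with most UMIs. Klf4 had 6.81, 6.07 and 6.51, and Gata2 3.79, 3.30 and 3.26, with overlapping intervals throughout for Gata2. Without the cell with most UMIs on each side the Klf2 ratio in the Vwf subset was 1.35. Of 18 immediate early and dissociation genes, 7 were higher and 3 lower in that subset, and the part of these genes and of the cell with T-cell markers in the Klf2 value was not tested. In the Vwf subset, 5 genes were higher (Sox17, Sox7, Erg, Tal1 and Klf2; 21.4% of genes) and 3 lower (Meox1, Sox18 and Foxf1; 31.1%). Within library 1 Foxf1 was at 0.736 (0.519 to 1.01), inside 1.5-fold, and Sox18 at 0.609 (0.339 to 1.01). Erg and Tal1 turned to ratios of 0.844 and 0.800 without the cell with most UMIs on each side. In the Gpihbp1 subset, Sox17 (5.24), Erg (2.52) and Sox7 (1.94) were higher (13.8% of genes), and Meox1 (0.378), Foxf1 (0.558) and Sox18 (0.621) lower (18.5%). Within a library Foxf1 and Sox18 stayed inside 1.5-fold there, at 0.674 and 0.999 in library 2 and at 0.683 and 0.857 in library 1.

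The Car4 subset was not uniform in Sox17. In its 205 cells with a Gpihbp1 UMI, Sox17 had 113 UMIs in 53 cells and a rate of 0.783 (0.645 to 0.941), against 6 UMIs in 6 of the 313 cells without one and a rate of 0.0379 (0.0139 to 0.0824). The ratio was 20.7 (9.21 to 57.5). By Gpihbp1 count the Sox17 rate was 0.997 at 2 or more UMIs (133 cells), 0.244 at 1 UMI (72 cells) and 0.0379 at 0 UMIs. Cells with a Gpihbp1 UMI were deeper, with a median of 6369 UMIs against 4665; weighted over library and depth the ratio was 21.1 (7.10 to 62.9), and it was 14.2 within library 2 and 27.1 within library 1.

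Of the 10 genes, Sox17 and Erg passed 1.5-fold in this split (5.8% of 8386 genes were higher and 4.97% lower), Erg at 1.57 (0.964 to 2.60) and at 1.27 once weighted. Sox7, at 1.21 (0.925 to 1.57), and Sox18, at 0.854 (0.765 to 0.953), stayed within it. Of 6 general capillary markers, 6 were higher in the same cells, Cd93 at 24.1-fold, Kit at 22.5-fold and Cxcl12 at 17-fold among them, and Car4 itself was 0.792-fold. Edn1, which encodes endothelin, and Hey1, a Notch target of arteries, had rates of 1.5 and 0.298 in these cells, against 0.0505 and 0.00631. Of 6 targets of ERG, GATA2 and FOXF1, 2 were higher. Of 7 arterial, venous and lymphatic factors, 1 reached detection in 5% of cells, and it stayed within 1.5-fold. Of 4 myeloid markers 4 were higher too, Lyz2 at a rate of 1.22, against 0.133, and Vwf was at 1.18, against 0.0379. The myeloid sum was 1.76, against 0.208, with 85.3 in its highest cell. The other lineage lists went the other way. B-cell, plasma-cell, fibroblast and epithelial markers were lower in 4 of 4 each, and T-cell and contractile markers in 3 of 4 each. The fibroblast sum was 0.132, against 0.934, where the highest cell had 79.8. The contractile sum was 0.0416, against 3.76, where the highest cell had 553. No doublets were removed here, and the part of cells caught in pairs or of free RNA in the values of this split was not tested.

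**Figure D3:**
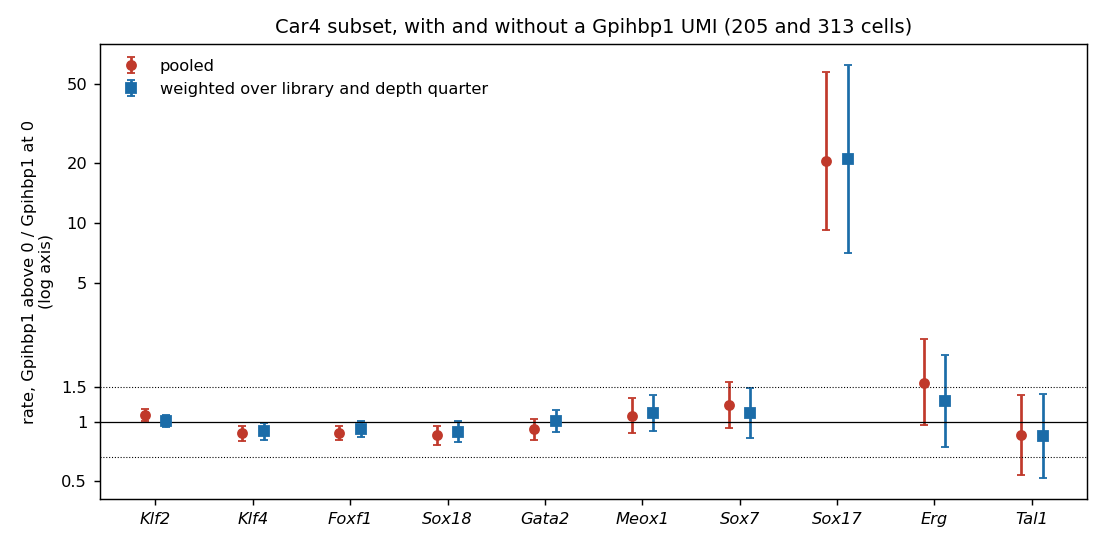
Ratio of each gene's rate in the 205 cells of the Car4 subset with a Gpihbp1 UMI over the 313 without one (log axis), pooled with exact intervals and weighted over library and depth with normal intervals; dotted lines mark 1.5-fold. Sox17 stands at 20.7 and 21.1, and the other 9 genes lie between 0.844 and 1.57.

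Cdkn2a, the gene whose reporter was sorted for, had a UMI in 332 of the 611 endothelial cells (54.3%) and in 16.0% of the other cells. Within the endothelium the share was 313 of 518 in the Car4 subset (60.4%), 15 of 72 in the Gpihbp1 subset (20.8%) and 3 of 17 in the Vwf subset (17.6%). Cells with a Cdkn2a UMI were deeper, at a median of 5844.5 UMIs against 4655, and 118 of the 154 endothelial cells of library 2 had one, against 214 of 457 in library 1. A comparison by Cdkn2a is therefore in part a comparison of subset, library and depth.

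Without weighting, the Cdkn2a split gave lower Sox17 and Erg. Sox17 had a rate of 0.535 (0.442 to 0.642) in cells with Cdkn2a above 0, against 1.38 (1.20 to 1.58) in cells at 0, a ratio of 0.387 (0.306 to 0.488). Erg had 0.254 (0.191 to 0.330), against 0.393 (0.30 to 0.506), a ratio of 0.646 (0.440 to 0.947). These 2 of 10 genes were lower by 1.5-fold, where 5.72% of 8515 genes were; none was higher, where 4.76% were. Sox18 (1.38), Foxf1 (1.25) and Meox1 (1.24) were higher by less than 1.5-fold. Gpihbp1 (0.551), Vwf (0.405), 6 of 6 general capillary markers and 7 of 8 larger vessel markers were lower in the same cells. Of the 8 larger vessel markers, though, 2 reached detection in 5% of cells. The summed rate of all 8 was 12.4 in cells with Cdkn2a above 0, against 13.4 in cells at 0. Of 4 fibroblast markers 4 were lower, with a summed rate of 0.138 in cells with Cdkn2a above 0, against 1.06 in cells at 0. Of 4 T-cell markers 4 were higher, from 5 cells (0.180) against 3 cells (0.0196). The part of these other markers in the result was not tested.

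Weighted over library and subset, 0 of 10 genes passed 1.5-fold (4.24% of genes were higher and 3.86% lower). Sox17 moved to 0.712 (0.541 to 0.937), Erg to 0.903 (0.602 to 1.35), Sox18 to 0.970 (0.858 to 1.10) and Foxf1 to 0.937 (0.861 to 1.02). Klf2 had 1.13 (1.06 to 1.21) and Gata2 1.11 (0.988 to 1.25). Within the Car4 subset the Sox17 rate was 0.410 in cells with Cdkn2a above 0 and 0.361 in cells at 0 (ratio 1.14, 0.764 to 1.72). In the Gpihbp1 subset it was 2.00 in the 15 cells above 0, against 3.13 in the 57 at 0 (ratio 0.640, 0.422 to 0.948). Those 15 cells were all in library 1 and deeper, at a median of 9272 UMIs against 4377. Their summed rate of Car4-high capillary markers was 45.5, against 18.8, and of general capillary markers 32.8, against 49.5. The part of these differences in the Sox17 ratio was not tested. In the Vwf subset Sox17 had 2 UMIs in 3 cells, against 45 UMIs in 14 cells.

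Klf2 showed a Cdkn2a difference in library 2 and little in library 1. In library 2 its rate was 12.4 (11.7 to 13.2) in endothelial cells with Cdkn2a above 0, against 8.92 (7.64 to 10.3) in cells at 0, a ratio of 1.39 (1.19 to 1.64). In library 1 the rates were 11.6 and 11.3, a ratio of 1.03 (0.957 to 1.11); the difference between the libraries was not tested. Within the Car4 subset of library 2 the ratio was 1.56 (1.29 to 1.90), from 118 cells and 26 cells. In the same 26 cells with Cdkn2a at 0, Sox17 and Erg had 0 UMIs, against 40 and 14 in the 118 cells above 0. The 26 cells held 148331 UMIs of all genes and the 118 cells 871139. The lower limit of the ratio was 1.76 for Sox17 but 0.565 for Erg, which allows no difference in Erg. Gpihbp1 was also 1.86-fold higher (1.16 to 3.16) in the 118 cells. Those cells were deeper, at a median of 6845 UMIs against 5245.5. The part of Gpihbp1 and of depth in the Sox17 value was not tested.

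**Figure D4:**
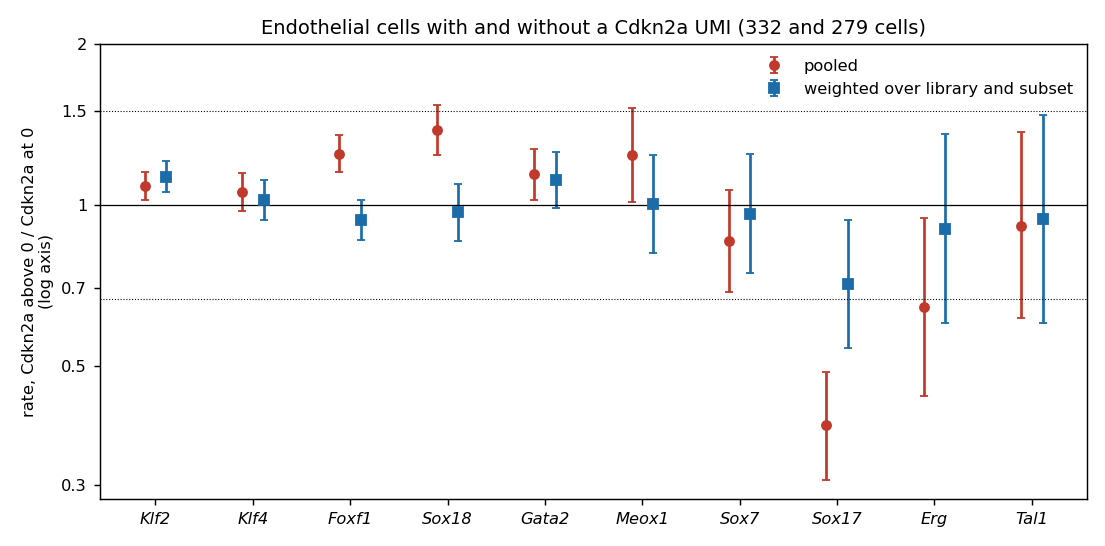
Ratio of each gene's rate in endothelial cells with Cdkn2a above 0 (332 cells) over those at 0 (279 cells) on a log axis, pooled with exact intervals and weighted over library and subset with normal intervals; dotted lines mark 1.5-fold. Sox17 is at 0.387 pooled and 0.712 weighted, and Sox18 at 1.38 pooled and 0.970 weighted.

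The libraries themselves differed in some of these genes. In endothelial cells Sox18 had a rate of 7.31 (6.81 to 7.85) in library 2, against 2.76 (2.57 to 2.97) in library 1, a ratio of 2.65 (2.39 to 2.93). Foxf1 had 11.2 (10.5 to 11.8) in library 2, against 5.80 (5.52 to 6.10) in library 1, a ratio of 1.92. Sox17, at 0.566, and Erg, at 0.342, were lower in library 2; 2 of 10 genes passed 1.5-fold each way, where 9.75% of genes were higher and 11% lower. Within the Car4 subset Sox18 was still 2.54-fold (2.28 to 2.83) and Foxf1 1.81-fold (1.67 to 1.96) higher in library 2, and Sox7 was 1.56-fold higher. That made 3 of 10 higher, where 9.47% of genes were, and 1 lower, Erg at 0.467, where 9.59% were. Sox17 was level there at 0.997 (0.664 to 1.48). Car4 was 1.62-fold higher in library 2 in the same subset. Klf2 and Klf4 were within 1.08-fold in both comparisons. Markers of other lineages were lower in library 2 in the endothelial cells and in the Car4 subset alike: 4 of 4 each for T cells, B cells, plasma cells, fibroblasts and epithelium. In all endothelial cells the summed rates were 0.00939 in library 2, against 0.726 in library 1, for the fibroblast list, and 0.160, against 2.18, for the myeloid list. The part of mixed cells or free RNA in the library differences was not tested. Whether the libraries differ by animal, day or handling cannot be told apart.

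**Figure D5:**
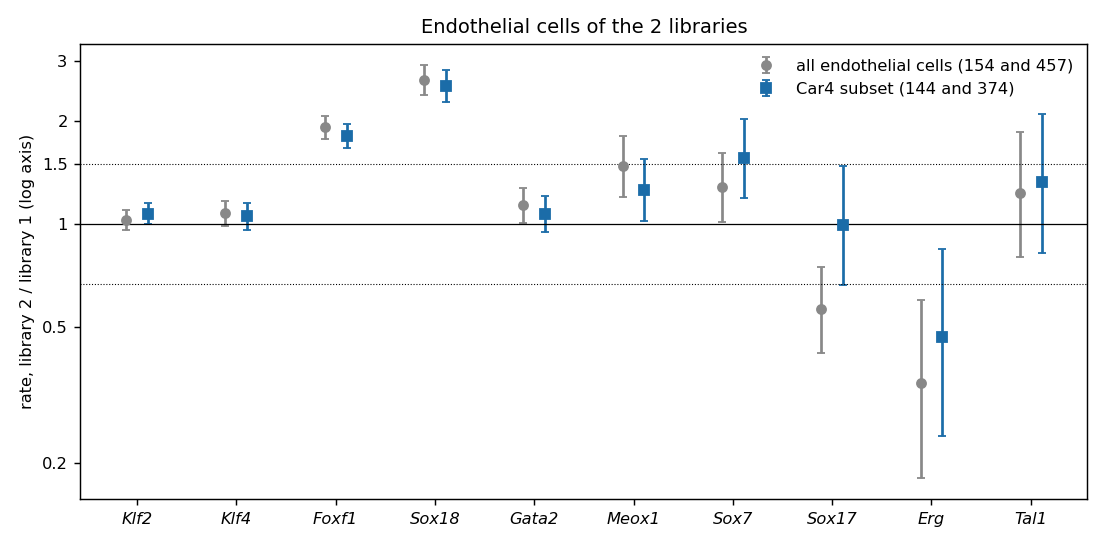
Ratio of each gene's rate in library 2 over library 1 (log axis, exact intervals) in all endothelial cells and in the Car4 subset alone; dotted lines mark 1.5-fold. Sox18 (2.65 and 2.54) and Foxf1 (1.92 and 1.81) are higher in library 2 in both, and Sox17 is at 0.566 and 0.997.

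From cell to cell within the endothelium, Klf2 and Klf4 varied together and with genes of the early response. Across 611 endothelial cells, with values centred within library and subset, Pearson's r between Klf2 and Klf4 was 0.32, and 0.24 after thinning to 2500 UMIs; these r are descriptions, since the cells share libraries and depth. The next pair was Sox7 and Sox17 at 0.17, or 0.05 after thinning, and the other 43 pairs were within 0.09 of 0. Among 6687 genes, those most like Klf2 were Fos (0.39), Fosb (0.36) and Ier2 (0.35), all immediate early genes, and those most like Klf4 were Klf2, Ier2 (0.31) and Egr1 (0.31). With the summed level of 18 immediate early and dissociation genes, r was 0.43 for Klf2 and 0.33 for Klf4, and within 0.10 of 0 for the other 8. Of those 18 genes, 11 were over 2-fold lower in endothelial cells and 0 higher, where 14.9% and 28.2% of all genes were, with a summed rate of 76.9 in endothelial cells, against 115 in the others. The part of cell handling in the level of Klf2 and Klf4 was not tested.

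The genes most like Sox17 were Cd93 (0.48), Cxcl12 (0.47) and Ptprb (0.46), all with roles in vessels, and Ptprb and Cd93 were also among the 3 most like Sox7 (0.21 and 0.21, after Pcp4l1 at 0.22). Cd93 and Cxcl12 are general capillary markers of the list used above. Like Sox17, both were higher in the cells of the Car4 subset with a Gpihbp1 UMI. Centring within subset leaves that difference in, and its part in these r was not tested. Foxf1 was most like Hopx, Hpgd and Thbd (0.22 each). For Gata2, Sox18 and Meox1 no gene passed 0.18: their nearest were Aup1 (0.17), Snapc3 (0.16) and Gmfg (0.18).

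The relatives and partners of these factors were compared from lists that earlier results of these data could have shaped. The counts stand beside 28.2% of all genes higher and 14.9% lower. Of 6 other ETS factors, 3 were over 2-fold higher in endothelial cells and 0 lower: Elk3 (4.52-fold), Ets2 (3.57-fold) and Ets1 (2.13-fold), with a median ratio of 1.70 beside 1.45 over all genes. Fli1, a close relative of Erg, was at 0.677. Of 7 other KLF factors, 5 were higher and 0 lower, among them Klf7 (rate 7.0, against 0.664 in other cells) and Klf13 (3.52, against 1.06). Of 6 partners of TAL1 in the table, 3 were higher and 2 lower. Cbfa2t3 (4.76-fold) and Lmo2 (4.37-fold), a bridge between TAL1 and GATA factors, were among the higher, and Runx1, a factor of blood cells, was the lowest, with a rate of 0.0433 in endothelial cells, against 0.900 in the others.

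Of 4 homeobox and related factors detected in 5% or more of cells, 4 were higher in endothelial cells, with Tbx3 (51.8-fold), Tbx2 (16.9-fold) and Hlx (10.9-fold). Of 5 MEF2 and hypoxia factors, 2 were, a share near the 28.2% of all genes: Epas1 (60.4-fold), the HIF-2α gene of lung endothelium, and Mef2a (2.73-fold). Of 3 targets of KLF2 and KLF4 that passed the same limit, 2 were higher, Thbd (18.6-fold) and S1pr1 (13.1-fold), and Plpp3 was at 0.821. Of 6 targets of ERG, GATA2 and FOXF1, 6 were higher, with Kdr (217-fold), Robo4 (62.6-fold) and Edn1 (44.8-fold). Of 4 forkhead factors that passed it 1 was higher, Foxp1 (2.13-fold), again near that share, and of 3 arterial, venous and lymphatic factors Hes1 (2.84-fold) was higher and Nr2f2 (0.107) and Heyl (0.0409) lower.

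Within the endothelium the ETS factors lay on the side of Erg. In the Car4 subset, 5 of 6 were at least 1.5-fold lower than in the other subsets, where 14.2% of all genes were, and 0 higher, with a median ratio of 0.547 beside 1.04 over all genes. Of the 18 immediate early and dissociation genes, 9 were lower there too (median ratio 0.676), and their part in this was not tested. Ets1 had a rate of 2.06 in the Car4 subset, against 5.45, and Fli1 0.251, against 0.668. The forkhead factors Foxo1 (0.356) and Foxp1 (0.382) were lower as well. Tbx2 (4.48-fold), Tbx3 (2.40-fold) and Hlx (2.24-fold) were higher in the Car4 subset, like Foxf1, while Hhex was at 0.241. Targets split: Kdr had 26.3 in the Car4 subset, against 9.84, and Edn1 0.743, against 6.24, and Tek 0.961, against 6.15. All these subset values are pooled over the libraries, and none is given within a library. In endothelial cells of library 2 against library 1, 2 of 6 ETS factors were over 1.5-fold lower and 0 higher. Of all genes, 11% were lower there, and the median ratio of the ETS factors was 0.713 beside 1.02. By Cdkn2a above 0, Edn1 (0.515), Tek (0.534), Fli1 (0.607), Foxo1 (0.571) and Hhex (0.526) were lower, in pooled values, as was Sox17. Their lists had 2 of 6 targets, 1 of 6 ETS, 1 of 4 forkhead and 1 of 4 homeobox and related factors lower, and 0 higher. Of all genes, 5.72% were lower and 4.76% higher. Values weighted over library and subset are not given for these 5 genes.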

How the data were processed

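Per the submitters' processing notes, reads were processed with Cell Ranger 3.0.2 on mm10; further filters and any removal of doublets were not given in the sources used here. Values as deposited are on a natural log scale: the back-transformed values of a cell sum to 10000, so the authors scaled UMIs to the cell's total, added 1 and took the log. Whole UMIs were recovered with a largest deviation of 1.78e-10. Rates are summed UMIs per 10000; intervals are at 95%, Poisson for rates, conditional binomial for ratios, Clopper-Pearson for shares and normal for Mantel-Haenszel ratios weighted over library, subset or bins of depth. Cells are not replicates, the 2 samples form 1 group and the libraries could not be tied to them, so no test was run. A difference was counted from 2-fold (endothelial against other) or 1.5-fold (within endothelium). Genes detected in 5% of cells were compared, except that counts over marker lists take every listed gene. All 18 early-response genes passed that limit in each comparison. A count of 0 was given a limit of 3 counts. No doublet caller was run. Thinned shares are expected values after drawing 2500 UMIs per cell. The 10 genes were named by the list, list genes by up to 4 of the largest ratios per list with 20 or more UMIs, and nearest genes by the 3 highest r; members and lists were chosen with earlier results of these data known, and the splits by Gpihbp1 within the Car4 subset and by Vwf within the Gpihbp1 subset after seeing the data. Scripts were checked on simulated data with Python 3.11.15, numpy 2.4.6, scipy 1.17.1 and pandas 2.3.3. Promoters are from RefSeq (GRCm38.p6).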

Additional observations from a re-analysis of the deposited data

How the results depend on the processing

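No paired analysis was possible because both samples form 1 group and no column of cells could be tied to a sample. Of 609 single-gene values under the alternatives, 510 stayed inside the interval of the reported value and 96 moved outside it. Alternatives that changed only the limit on detection left every ratio as it was, so their values among the 510 could not move. The other 3 changed direction, counted only for genes past the fold limit as reported. Erg (0.844) and Tal1 (0.800) did so in the Vwf subset without the cell with most UMIs on each side. Erg did so at 1.03 by Cdkn2a at 2 or more UMIs. Genes inside the limit that crossed 1 were not counted, among them Sox18 (1.38 to 0.970) and Foxf1 (1.25 to 0.937) by Cdkn2a, weighted over library and subset. The count of genes past 1.5-fold by Cdkn2a, 2 as reported, was 1 in library 1 alone, 1 in library 2 alone, 1 weighted over library and 1 with Cdkn2a at 2 or more UMIs (Sox17 each time), and 0 weighted over subset, over library and subset, or over library, subset and depth. The count in the Vwf subset, 8 as reported, was 5 without the cell with most UMIs and 4 where cells with a Vwf UMI were set against those without; the like split gave 3 for Gpihbp1 in place of 6. The 10 genes higher in endothelial cells were 5 in library 2 alone, since the other 5 had 0 UMIs in its other cells and gave no ratio; Erg, Tal1 or Meox1 gave none in some subsets of library 2 for the same reason. The highest Klf2 rate of a marker group was 11.0 at a marker limit of 1.5 (12.6 as reported), and the highest r was 0.237 after thinning (0.316 as reported). Weightings by library or subset alone, by library, subset and depth, and the division by the median ratio were chosen after seeing the data. The 17 cells of the Vwf subset and the low counts of Erg and Tal1 limit what depth can show.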

Other observations

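Within the Gpihbp1 subset, 55 cells had a Vwf UMI and 17 had none, at median depths of 6012 and 4377 UMIs. Foxf1 had a rate of 4.88 (4.25 to 5.57) in cells with a Vwf UMI, against 2.30 (1.46 to 3.46) in cells without one, a ratio of 2.12 (1.38 to 3.41). Meox1 had 0.356, against 1.0 (ratio 0.356, 0.152 to 0.878), and Sox18 2.43, against 3.80 (ratio 0.638, 0.437 to 0.949). Sox17 was at 0.779 (0.528 to 1.18). With Sox7 (1.52, 0.801 to 3.17) and Erg (1.72, 0.610 to 6.72), 3 of 10 genes were higher past 1.5-fold, where 31.1% of 9030 genes were, and 2 lower, where 17.7% were. Of 18 immediate early and dissociation genes, 11 were lower in cells with a Vwf UMI and 0 higher, with a summed rate of 79.5, against 130 in cells without one. The median cell had a sum of 45.3, against 50.8, and the highest cell without a Vwf UMI had 752. Fibroblast (4 of 4), epithelial (4 of 4) and myeloid (3 of 4) markers were higher in cells with a Vwf UMI, the myeloid sum at 6.33, against 0.20. Their part in these ratios was not tested.

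The 4 endothelial cells with no single highest subset gene held 8 Sox17 UMIs and 13 Sox18 UMIs, and 1 endothelial cell reached 622 UMIs per 10000 of the lymphatic markers, against a median of 1.12 over all endothelial cells.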
